A study of Mus musculus with 4 samples.

Results

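The 32 genes described here encode the glucose and lactate transporters, the enzymes of glycolysis, the enzymes that set its rate, and a group of genes known for their response to low oxygen. They were found by symbol among the gene names in the scanner files, and the rule for membership uses no measured value. They divide into 4 transporter genes, 17 genes of glycolytic enzymes, 3 genes of regulatory enzymes and 8 hypoxia response genes. All 32 were found among 26680 gene names, and all 32 were among the 19166 genes tested. The probe representing each gene was well above background on all 4 arrays.

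The samples were mouse CD4+ T cells of genotype miR-155+/+ (wild type, 2 arrays) and miR-155-/- (knockout, 2 arrays). All were cultured with anti-CD3e, anti-CD28, TGFb and IL-6, the setting for T helper 17 (Th17) differentiation, and sorted as CD4+ cells positive for the IL-17F RFP reporter. Per the design text the arrays of each genotype are biological replicates, but the labels name neither animals nor cultures, and a p-value here reflects only how these arrays vary, which may be partly technical. The sources used here do not state the strain, the age or the time in culture, and the labels name no Cre or conditional allele. No probe carries the name of Mir155 or its host gene, so the deletion itself was not checked.

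Glycolysis converts glucose taken up through the GLUT transporters into pyruvate, which lactate dehydrogenase turns into lactate for export. Activated T cells are known to raise glycolysis, and Th17 cells are known to depend on it. In low oxygen the prolyl hydroxylases (Egln genes) no longer mark the HIF alpha subunits for destruction by Vhl, and the stabilised HIF factors bind response elements at many glycolytic genes and at genes such as Vegfa, Bnip3 and Adm.

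The deleted microRNA and 3 promoters of the gene set are shown so that the perturbed molecule and the HIF core motif can be seen. The mature sequence of mmu-miR-155-5p is from RefSeq (GRCm38.p6, chr16:84714143-84714165, plus strand), with its seed, bases 2 to 8, in capitals.
mmu-miR-155-5p: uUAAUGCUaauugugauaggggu
The promoters are the 250 bases before the first listed start, also from RefSeq (GRCm38.p6). The capitals mark the HIF core motif, ACGTG or GCGTG, on either strand. CACGTG reads as ACGTG on both strands and was counted as 2 matches. The Ldha promoter (chr7:46845554-46845803, plus strand) and the Bnip3 promoter (chr7:138909507-138909756, minus strand) held 5 matches each, the largest count in the set, and the Hk2 promoter (chr6:82774455-82774704, minus strand) held 2.
Ldha: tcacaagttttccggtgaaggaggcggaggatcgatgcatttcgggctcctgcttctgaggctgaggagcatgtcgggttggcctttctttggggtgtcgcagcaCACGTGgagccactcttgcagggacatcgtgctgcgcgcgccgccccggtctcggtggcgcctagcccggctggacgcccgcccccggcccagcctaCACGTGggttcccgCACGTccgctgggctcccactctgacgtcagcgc
Bnip3: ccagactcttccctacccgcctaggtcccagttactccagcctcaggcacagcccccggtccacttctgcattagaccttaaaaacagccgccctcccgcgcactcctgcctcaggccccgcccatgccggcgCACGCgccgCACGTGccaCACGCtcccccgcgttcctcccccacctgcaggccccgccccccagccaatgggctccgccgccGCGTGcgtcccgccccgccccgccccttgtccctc
Hk2: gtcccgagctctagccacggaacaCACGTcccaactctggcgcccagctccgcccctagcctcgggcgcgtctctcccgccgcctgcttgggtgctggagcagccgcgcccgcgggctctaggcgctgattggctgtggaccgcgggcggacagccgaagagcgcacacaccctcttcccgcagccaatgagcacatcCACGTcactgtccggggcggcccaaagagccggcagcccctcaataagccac
Promoters of 29 members were matched by symbol, and those of Slc2a3, Bnip3l and Epas1 were not. The motif was present in 22 of the 29 (75.9%), in 11 of 17 enzyme promoters (64.7%) and in 5 of 6 hypoxia response promoters (83.3%). Of 12993 promoters of tested genes 51.1% held it, and 38.6% of all 27025 promoters listed did. A match describes the sequence only.

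Levels below are log2 processed signals minus the 75th percentile of the array, and differences are knockout minus wild type on that scale, with the standard error (SE) from limma. Spots well above background made up 63.5% to 69.8% of an array, with 0 saturated. Knockout array 1 was the least even, with a fitted multiplicative surface of SD 0.157 against 0.0498 to 0.0557 elsewhere, and this surface had been divided out at 0.799% of its bright spots against 100% on the other arrays. The wild-type arrays lay in another row of the slide than the knockout arrays, so genotype and position on the slide cannot be told apart. The 8 T cell markers (Cd3d, Cd3e, Cd3g, Cd4, Cd5, Cd2, Cd28 and Lck) were well above background on all arrays, with differences of -0.20 to 0.047. The 6 Th17 markers were all lower in the knockout at an unadjusted p under 0.05 (limma), where 4.1% of all genes were lower. Their differences ran from -3.17 (Il17a) to -0.59 (Rora), and 0 of them had an adjusted p under 0.05. The part of these differences in the values below was not tested. In RNA from bulk cells, fewer cells of a type and less RNA per cell cannot be told apart.

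Taken by its brightest probe, none of the 32 genes differed between genotypes by enough to pass the test, and most differences were a small fraction of 1 log2 unit. The exception appeared below the level of genes, where the other probes of Epas1, the HIF-2 alpha gene, read 4.85-fold and 5.55-fold higher in the knockout without passing the adjusted threshold. limma with Benjamini-Hochberg adjustment called 0 of the 32 at 0.05 (background 0.0% of 19166 genes), and the smallest adjusted p among them was 0.474, for Pkm2. At an unadjusted p under 0.05 the count was also 0 in either direction, where 7.22% of all genes were higher and 4.1% lower. The values were higher in the knockout for 18 members and lower for 14, against 52.4% higher among all genes. Of the 32 differences 31 lay within 0.5 of 0, and the median was 0.020, beside 0.016 for all genes. Both knockout arrays lay above both wild-type arrays for 5 members (background 25.4%) and below them for 7 (background 22.4%), or 37.5% in all against a background of 47.8%.

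**Figure D1:**
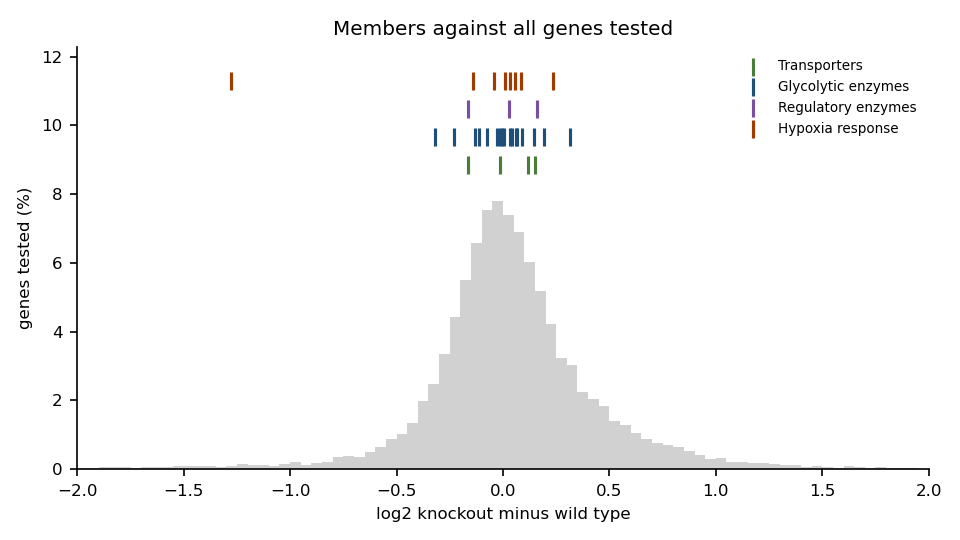
The histogram gives the percentage of the 19166 tested genes at each log2 difference between knockout and wild type, drawn from -2 to 2, and each tick above it is 1 member gene in its role. All ticks but that of Egln1, at -1.28, lie within the central part of the histogram, between -0.32 and 0.32.

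The sign of such small values depends on where the scaling sets 0. When arrays were shifted by their medians in place of their 75th percentiles, the median of all genes moved from 0.016 to -0.14, and 3 members instead of 18 were higher. Over all genes, 63.8% of those at an unadjusted p under 0.05 were higher in the knockout, against 24.9% with the median shift and 51.6% with quantile scaling. The middle 50% of all genes spanned -0.16 to 0.22. The median shift lowered all differences alike, including those of the wider lists given further on, so the members kept their distance from the median of all genes and a change of sign under it only marks a small value.

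Glycolytic enzymes and hypoxia response genes did not separate. The 17 enzymes had a median difference of 0.0063, with 9 higher and 8 lower and a range of -0.32 to 0.32. The 8 hypoxia response genes had a median of 0.023, with 5 higher and 3 lower, and the median of the hypoxia response genes minus that of the enzymes was 0.017, or 0.028 without Egln1. Arrays did not overlap between genotypes for 8 enzymes (47.1%) and for 1 hypoxia response gene, P4ha1 (12.5%), beside 47.8% of all genes, so the share of the enzymes was that of the background. The 2 groups, 4 transporters (median 0.051) and 3 regulatory enzymes (median 0.028) thus all had medians close to that of all genes.

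The same contrast was taken for each pair of arrays. Knockout array 1 minus wild-type array 1 gave a median of 4.7e-05 for the enzymes and -0.10 for the hypoxia response genes. Knockout array 2 minus wild-type array 2 gave -0.025 and 0.13. The crossed pairs gave -0.0064 and 0.040 (knockout 1, wild type 2) and 0.039 and -0.018 (knockout 2, wild type 1). The order of the groups therefore changed with the pair of arrays. Within wild type, array 2 minus array 1 already gave 0.035 for the enzymes and -0.11 for the hypoxia response genes, and within the knockout 0.0077 and 0.048.

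**Figure D2:**
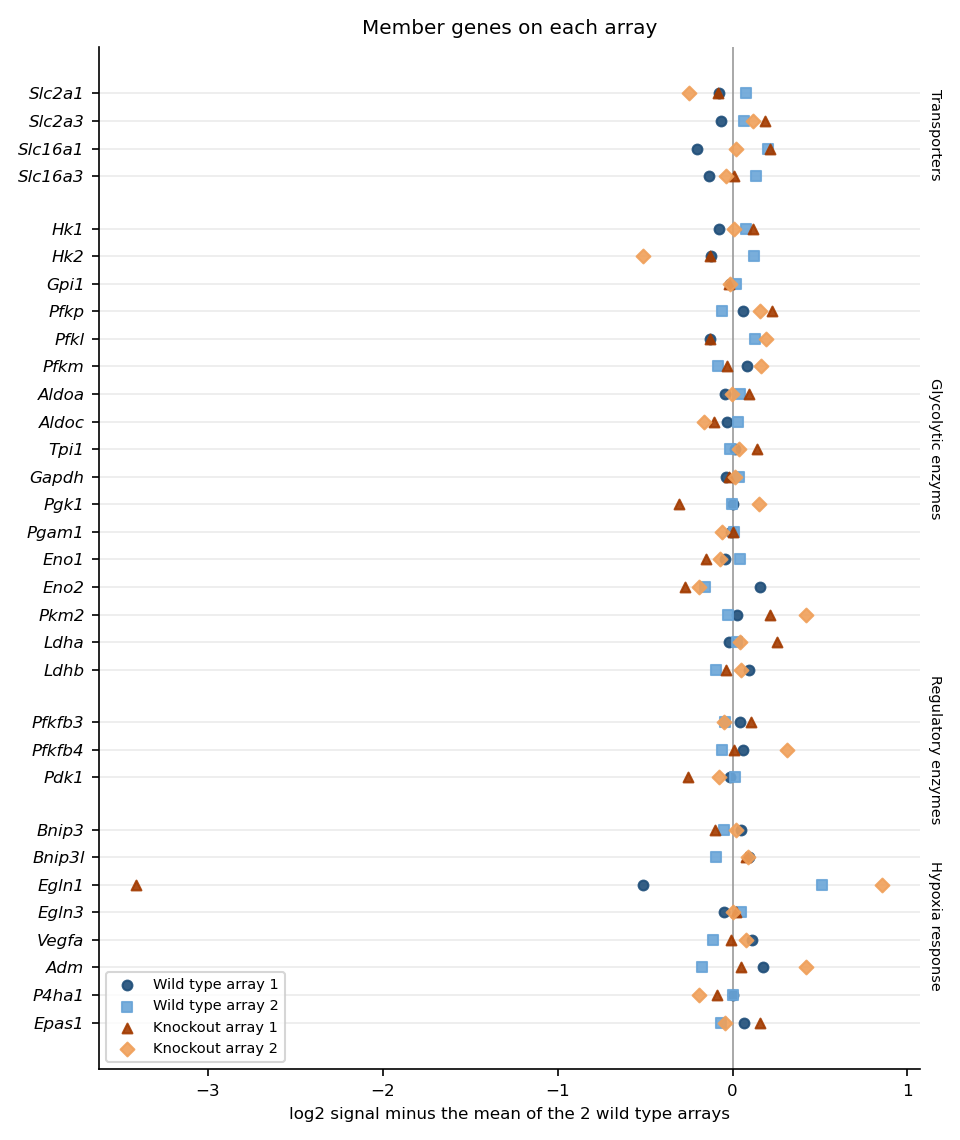
Each point is the log2 signal of a member gene on 1 array minus the mean of the 2 wild-type arrays, with genes in rows by role and arrays by colour and shape. Points of the genotypes interleave in most rows, and knockout array 1 stands far to the left for Egln1.

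Among the transporters, the glucose carriers Slc2a1 (GLUT1) and Slc2a3 (GLUT3) had opposite signs. Slc2a1 was at 5.83 and 5.98 in wild type and at 5.82 and 5.65 in the knockout, a difference of -0.17 ± 0.14 (SE). Both knockout arrays lay below both wild-type arrays, knockout array 1 only just. Slc2a3 was at 6.55 and 6.68 in wild type and at 6.81 and 6.73 in the knockout, a difference of 0.15 ± 0.13 (SE) without overlap, which became -0.0096 with the median shift.

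The lactate carriers had overlapping arrays. Slc16a1 (MCT1), which moves lactate and pyruvate with a proton, was at -1.73 and -1.33 in wild type and at -1.32 and -1.51 in the knockout. Its difference of 0.12 ± 0.19 (SE) became -0.043 with the median shift. Slc16a3 (MCT4), the lactate exporter of strongly glycolytic cells, was at 6.73 and 7.003 in wild type and at 6.88 and 6.83 in the knockout, a difference of -0.016 ± 0.15 (SE) that became 0.0039 with quantile scaling. The wild-type arrays of both genes spanned wider than the genotypes differed.

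Hexokinases trap glucose by phosphorylation, and Hk2 is the isoform that activated T cells are known to induce. Hk2 (probe at chr6:82675056-82675115, mm9) was at 3.16 and 3.402 in wild type and at 3.15 and 2.77 in the knockout, a difference of -0.32 ± 0.19 (SE), a 1.25-fold lower signal, with an unadjusted p of 0.174 and an adjusted p of 0.553 (limma). Knockout array 1 nearly equalled wild-type array 1, and knockout array 2 was the lowest, so that the difference was -0.13 without knockout replicate 2 and -0.51 without knockout replicate 1. It reached an unadjusted p of 0.0306 with the median shift, 0.0364 with normexp background correction and 0.0386 when knockout array 1 was divided by its surface, with adjusted p of 0.307, 0.207 and 0.395 (limma). Hk2 and Pkm2 had the largest differences of the enzymes, one in each direction.

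Hk1, the constitutive hexokinase, was at 8.03 and 8.18 in wild type and at 8.22 and 8.11 in the knockout. Its difference of 0.064 ± 0.13 (SE) became -0.097 with the median shift. That probe is listed on chromosome 5 and the gene lies on chromosome 10, and the Hk1 probe listed at chr10:61731856 gave -0.012. A further Hk1 probe read 2.67 on knockout array 2 and 1.02 on each of the other 3 arrays.

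The upper steps of glycolysis showed small values. Gpi1, which isomerises glucose 6-phosphate, differed by -0.016, which turned positive with quantile scaling. The 3 phosphofructokinase genes, whose enzyme commits sugar to glycolysis, differed by 0.19 ± 0.12 (SE) for Pfkp, 0.031 for Pfkl and 0.063 for Pfkm, and of these only Pfkp had knockout arrays (5.08 and 5.01) above both wild-type arrays (4.91 and 4.80). Pfkl and Pfkm turned negative with the median shift.

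The aldolases split in sign. Aldoa, the main form outside liver and brain, was at 9.40 and 9.49 in wild type and at 9.54 and 9.44 in the knockout, a difference of 0.044 ± 0.12 (SE) that became -0.12 with the median shift. Aldoc, the form best known from brain, was at 7.32 and 7.38 in wild type and at 7.24 and 7.19 in the knockout, a difference of -0.13 ± 0.12 (SE). The Aldoc arrays did not overlap and the Aldoa arrays did. Whether the aldolases differ from each other in response was not tested.

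The lower steps, from triose phosphate to phosphoenolpyruvate, were as close. Tpi1 differed by 0.089, turning negative with the median shift, and Gapdh by -0.0025, turning positive with quantile scaling. The other Tpi1 probe gave 0.26 ± 0.13 (SE), and knockout arrays exceeded wild-type arrays on both Tpi1 probes. The 8 Gapdh probes ran from -0.18 to 0.21, and 3 of them, including the one representing the gene, are listed on other chromosomes. Pgk1 was at 8.79 and 8.78 in wild type and at 8.48 and 8.94 in the knockout. Its probe lies in a corner block of the array, and the difference of -0.076 ± 0.20 (SE) became 0.40 when knockout array 1 was divided by its surface. Pgam1 differed by -0.030 and turned positive with quantile scaling. The enolases both had lower knockout values without overlap, Eno1 by -0.11 ± 0.12 (SE) and Eno2, the neuronal form, by -0.23 ± 0.16 (SE). Eno2 was at 1.99 and 1.68 in wild type and at 1.57 and 1.64 in the knockout, so wild-type array 1 alone stood clear of the rest.

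Pyruvate kinase, measured by 1 probe, and lactate dehydrogenase A, measured by 3, had higher values on both knockout arrays. The same held for the Tpi1 probes above. Pkm2 (the file's name for Pkm, pyruvate kinase of muscle and dividing cells, probe at chr9:59526867-59526926, mm9) was at 7.65 and 7.59 in wild type and at 7.83 and 8.04 in the knockout. The difference of 0.32 ± 0.14 (SE), a 1.24-fold higher signal, had a 95% interval of -0.058 to 0.69, an unadjusted p of 0.0794 and an adjusted p of 0.474 (limma). Both knockout arrays were above both wild-type arrays, and the value stayed positive under each scaling, from 0.15 with the median shift to 0.35 with quantile scaling. With a variance that follows intensity, its unadjusted p was 0.0186 and its adjusted p 0.347 (limma). In that fit 1356 of 19166 genes were higher at an unadjusted p under 0.05.

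Ldha, which makes lactate from pyruvate, was represented by a probe at chr7:54110937-54110996 (mm9) that read 8.48 and 8.53 in wild type and 8.75 and 8.54 in the knockout, a difference of 0.15 ± 0.14 (SE). Knockout array 2 exceeded the higher wild-type array by little, and the difference became -0.015 with the median shift. The other 2 Ldha probes gave 0.25 ± 0.12 and 0.34 ± 0.13 (SE), and knockout arrays exceeded wild-type arrays on all 3. The probe with the largest value read 7.02 and 7.18 in wild type and 7.47 and 7.41 in the knockout, with an unadjusted p of 0.0592 in a limma fit of all 25500 tested probes. Ldhb, the form that favours pyruvate, differed by 0.0063 ± 0.13 (SE) with overlapping arrays and turned negative with the median shift.

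The regulatory enzymes lay in the same range. Pfkfb3 and Pfkfb4, which make and break the activator fructose 2,6-bisphosphate, differed by 0.028 ± 0.13 and 0.16 ± 0.16 (SE) with overlapping arrays, and both turned negative with the median shift. Pdk1, which keeps pyruvate out of the mitochondrion by inhibiting pyruvate dehydrogenase, was at 3.94 and 3.96 in wild type and at 3.70 and 3.88 in the knockout, a difference of -0.17 ± 0.13 (SE) without overlap.

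**Figure D3:**
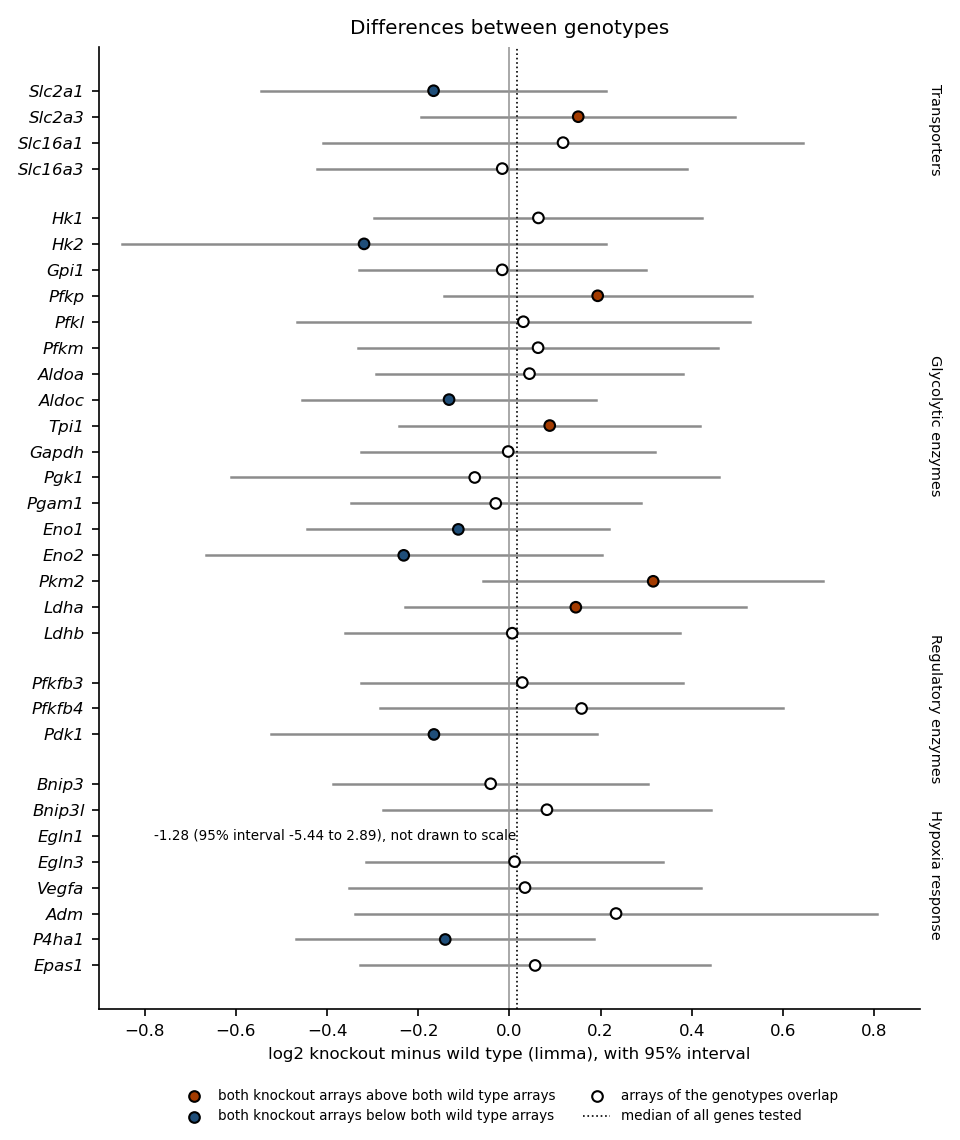
Points give the log2 difference between knockout and wild type of each member from limma, with 95% intervals as lines, filled where the arrays of the genotypes do not overlap, and the dotted line is the median of all genes, 0.016. Every interval spans 0, and Egln1, at -1.28 with an interval of -5.44 to 2.89, is written out because it exceeds the axis.

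Among the hypoxia response genes, the mitophagy genes Bnip3 and Bnip3l had differences within 0.1 of 0. Bnip3, a mitophagy receptor, was at 7.50 and 7.40 in wild type and at 7.35 and 7.47 in the knockout, a difference of -0.041 ± 0.13 (SE). Its relative Bnip3l (Nix) was at 6.61 and 6.42 in wild type and at 6.59 and 6.61 in the knockout, a difference of 0.082 ± 0.13 (SE) that became -0.078 with the median shift. Arrays of the genotypes overlapped for both. A Bnip3l probe in a corner block read 3.43 on knockout array 1 and 5.30, 4.97 and 5.23 on the others, while the other 3 Bnip3l probes gave 0.082 to 0.18.

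Vegfa, the angiogenic growth factor, differed by 0.034 ± 0.14 (SE) and turned to -0.13 with the median shift. Adm, the vasodilator peptide adrenomedullin, was at 2.15 and 1.80 in wild type and at 2.02 and 2.39 in the knockout. The difference was 0.23 ± 0.21 (SE), at an unadjusted p of 0.325 (limma). Only knockout array 2 exceeded the wild-type arrays. P4ha1, a collagen prolyl hydroxylase, was at 2.08 on both wild-type arrays and at 1.99 and 1.89 in the knockout, a difference of -0.14 ± 0.12 (SE), and its other probe gave -0.31 ± 0.14 (SE). Both P4ha1 probes were lower on both knockout arrays.

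The oxygen sensors Egln1 (PHD2) and Egln3 (PHD3) hydroxylate the HIF alpha subunits. Egln1 was at -0.019 and 1.002 in wild type and at -2.92 and 1.35 in the knockout, a difference of -1.28 ± 1.52 (SE). Knockout array 1 was the lowest of the 4 and knockout array 2 the highest, and the difference was 0.86 without knockout replicate 1 and -3.41 without knockout replicate 2. The only Egln1 probe lies in a corner block of the array, and the difference was -0.083 when knockout array 1 was divided by its surface. Egln3 was at 5.37 and 5.46 in wild type and at 5.44 and 5.42 in the knockout, a difference of 0.011 ± 0.12 (SE) that became -0.15 with the median shift.

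Epas1 (HIF-2 alpha), the HIF subunit among the members, gave values that depended on the probe. Stretches of its 3 probes, bases 21 to 50 of each 60-base oligonucleotide, are shown in the order of their positions on chromosome 17 (mm9). The capitals mark a C-rich repeat that 5 of the 25500 tested probes hold on either strand (0.0196%). These 5 had a median difference of -0.0175 and a median level of -0.30, beside 0.0147 and -0.40 for all tested probes. Whether the repeat bears on the values of probe 2 was not tested.
probe 1, chr17:87230587-87230646: gacatgctcactttattatccatgttttaa
probe 2, chr17:87230678-87230737: aagatttccCCCTCCCTCCCtcccttgaat
probe 3, chr17:87232615-87232674: catgaccattactgcattgtcaaattccta
Probe 2, the brightest and therefore the one representing the gene, read 2.32 and 2.20 in wild type and 2.41 and 2.22 in the knockout, a difference of 0.057 ± 0.14 (SE) that became -0.10 with the median shift. Its arrays overlapped.

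Probes 1 and 3 were higher in the knockout by a wide margin. Probe 1 read -2.57 and -2.99 in wild type and 0.044 and -1.05 in the knockout, a difference of 2.28 ± 0.42 (SE), a 4.85-fold higher signal, with a 95% interval of 1.12 to 3.43. Probe 3 read 0.46 and 0.010 in wild type and 3.26 and 2.16 in the knockout, a difference of 2.47 ± 0.43 (SE), a 5.55-fold higher signal, with an interval of 1.30 to 3.65. Both knockout arrays lay more than 1 log2 unit above both wild-type arrays on each, and all 3 probes were well above background on all arrays.

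In a limma fit of all 25500 tested probes, probe 1 had an unadjusted p of 0.00512 and an adjusted p of 0.322, and probe 3 had 0.00398 and 0.316, so neither passed the adjusted threshold, which 0.0% of probes did. At an unadjusted p under 0.05, 6.98% of probes were higher, and 92 probes (0.361%) were at least 4-fold higher. The differences of probe 1 ranged from 1.73 to 2.82 and those of probe 3 from 1.92 to 3.02 when each array was left out in turn. With median, quantile and normexp settings and with knockout array 1 divided by its surface, probe 1 gave 1.73 to 2.25 and probe 3 gave 2.31 to 2.50. Probes 1 and 2 start 91 bases apart, and probes 1 and 3 start 2028 bases apart. These probes were singled out after their values were seen, and the cause of the disagreement was not tested.

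**Figure D4:**
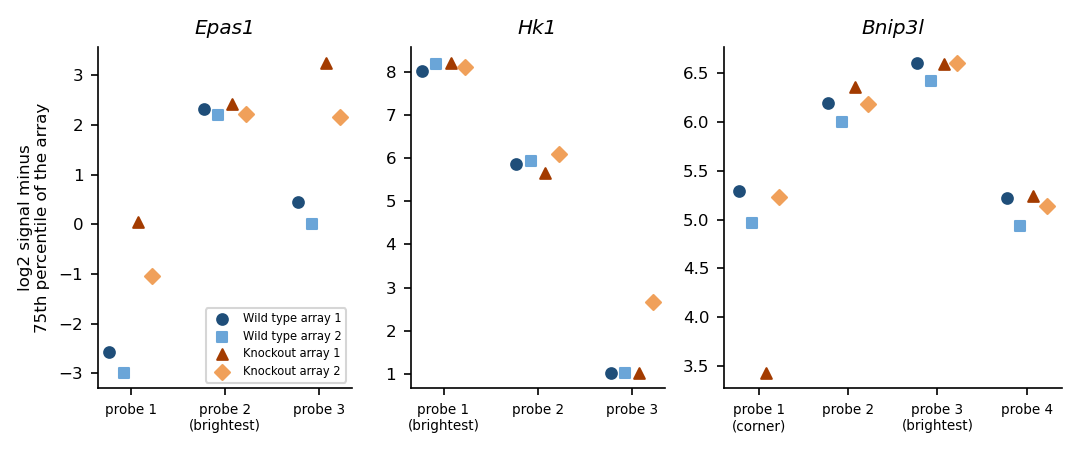
Each panel gives, for 1 gene, the log2 signal minus the 75th percentile of the array for every tested probe, with 1 point per array. Epas1 probes 1 and 3 separate the genotypes and probe 2 does not, 1 Hk1 probe stands high on knockout array 2 only (2.67 against 1.02), and 1 Bnip3l probe in a corner block stands low on knockout array 1 only (3.43).

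Other members were less dependent on the probe. Of 60 member probes 59 were tested, and 14 members had more than 1 tested probe. The signs disagreed in 9 of these, and the differences spanned more than 0.5 in 3, namely Epas1, Hk1 and Bnip3l. A single probe stood for 17 members, and 4 members (Hk1, Eno1, Gapdh and Pgk1) were represented by a probe listed on a chromosome other than the gene's.

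The wider HIF pathway was read from a list of 28 genes, 27 of which were tested. Of these 14 were higher and 13 lower, with a median of 0.032, and 0 passed the adjusted threshold. At an unadjusted p under 0.05, 0 were higher (7.22% of all genes) and 2 were lower (4.1% of all genes), a count too small to set the list apart from the background. These were Plod2 and Ankrd37. Plod2, a collagen lysyl hydroxylase, was at 2.30 and 2.18 in wild type and at 1.54 and 1.44 in the knockout. The difference was -0.75 ± 0.13 (SE), at an adjusted p of 0.297 (limma). Ankrd37 was at 4.06 and 4.19 in wild type and at 3.72 and 3.76 in the knockout, which gave -0.39 ± 0.12 (SE) and an adjusted p of 0.407 (limma).

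Of the HIF subunits and their regulators, 0 had an unadjusted p under 0.05. By its brighter probe Hif1a differed by 0.18 ± 0.12 (SE), from 4.73 and 4.64 in wild type to 4.84 and 4.89 in the knockout, without overlap, and its other probe gave 0.35. Its partner Arnt was at 1.16 and 1.13 in wild type and at 1.09 and 1.49 in the knockout, a difference of 0.15 ± 0.18 (SE). The 3 Arnt probes ran from -0.33 to 0.15. Vhl, which recognises hydroxylated HIF for degradation, differed by -0.18 ± 0.13 (SE), also without overlap. The alpha subunit gene Hif3a differed by 0.27 ± 0.12 (SE) and Hif1an, which hydroxylates and restrains HIF alpha, by 0.38 ± 0.18 (SE), both without overlap. Egln2, another of the prolyl hydroxylases, differed by 0.20 ± 0.14 (SE) without overlap, and its other probe gave 0.49. Hif3a, Hif1an and Egln2 were added after their values were seen. Arrays did not overlap between genotypes for 16 of the 27 tested genes of the wider HIF list (59.3%), beside 47.8% of all genes.

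The list of other genes of glucose handling held 55 genes, of which 50 were tested, 21 higher and 29 lower, with a median of -0.082. None passed the adjusted threshold, and at an unadjusted p under 0.05 there were 2 higher and 3 lower, near the shares of all genes (7.22% and 4.1%). The 5 genes are given as values. Hk3, a hexokinase of myeloid cells, had a low signal, at -3.58 and -3.48 in wild type and at -2.83 and -2.94 in the knockout. It differed by 0.64 ± 0.13 (SE), and Slc2a6 (GLUT6) by 0.43 ± 0.12 (SE), with adjusted p of 0.315 and 0.371 (limma). Myc, which drives glycolytic genes in activated T cells, differed by -0.60 ± 0.19 (SE), from 3.94 and 4.22 in wild type to 3.65 and 3.32 in the knockout. Txnip, which restrains glucose uptake, differed by -0.45 ± 0.12 (SE), and Pdha1, a subunit of pyruvate dehydrogenase, by -0.33 ± 0.11 (SE). The adjusted p of Myc, Txnip and Pdha1 were 0.408, 0.353 and 0.426 (limma). In this list Pgls and Dlat were fitted without wild-type array 2, where the spot had been marked as an outlier. Of 7 macrophage and dendritic cell markers, which may bear on Hk3, 6 were higher and 1 was lower, 0 of them at an unadjusted p under 0.05, and their summed level was 4.15 to 4.18 in wild type and 4.25 to 4.28 in the knockout. The sum adds linear signals, so it mostly follows Itgam, the brightest, at 3.66 in wild type and 3.68 in the knockout. Single markers differed by -0.67 (Cd14) to 0.85 (Itgax). The part of these markers in the Hk3 value was not tested. Of the other marker lists, 2 of 6 tested CD8, NK and gamma-delta T cell genes were higher at an unadjusted p under 0.05, 1 of 6 tested B cell genes was higher and 2 were lower, and 0 of 1 erythroid and 0 of 3 neutrophil and mast cell genes differed at that p, where 7.22% of all genes were higher and 4.1% lower.

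**Figure D5:**
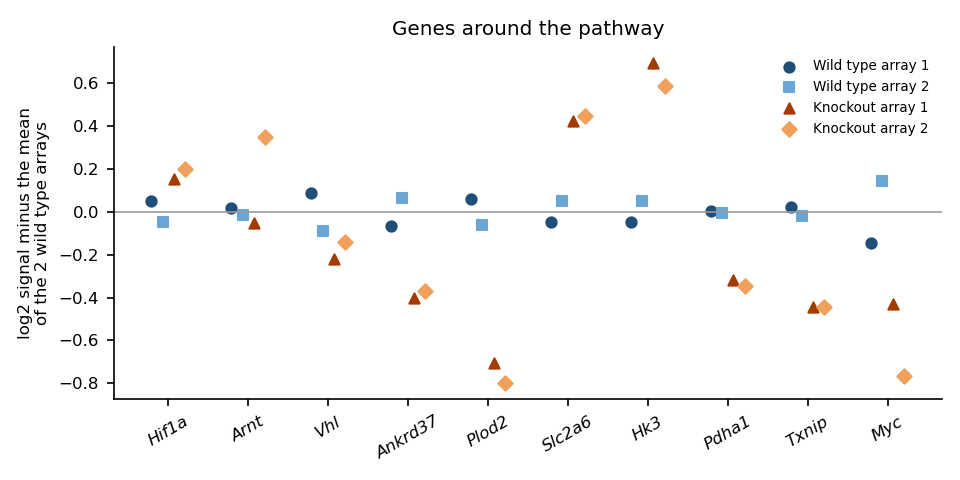
Each point is the log2 signal of 1 gene on 1 array minus the mean of the 2 wild-type arrays, for Hif1a, Arnt, Vhl and the 7 listed genes with an unadjusted p under 0.05. Plod2 lies lowest, at -0.75 on average in the knockout, and Hk3 highest, at 0.64.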

How the data were processed

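Total RNA from sorted cells was labelled with Cy3 and hybridised to 1-colour Agilent arrays, per the labels' protocols. The authors deposited 1 scanner output per array from Agilent Feature Extraction 10.5.1.1, whose processed signal is a background-subtracted, detrended linear intensity, per the file headers. The deposited outputs also hold the fitted multiplicative surface of each spot, a ratio, per the file headers. Per probe, a deposited matrix of the authors' log2 values equalled the log2 processed signal plus a constant per array for 100% of 55249 probes within 0.001; all 4 columns had a median of 5.54.

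Control spots and flagged outliers were left out, spots of a probe were averaged, and log2 signals were shifted by the 75th percentile of the array. Probes (60 bases, positions on mm9 per the file headers) were named through RefSeq's GRCm38.p6 table: 26762 of 55681 by accession, 3819 by symbol, 639 by synonym. A probe was tested if both arrays of at least 1 genotype read it well above background, and the brightest represented its gene. A corner block spans columns from 139 and rows up to 52 or from 311.

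limma 3.58.1 in R 4.3.3 (2 residual and 2.17 prior degrees of freedom) compared genotypes, adjusted by Benjamini-Hochberg over all genes, after tests on simulated data. The number of arrays limits precision, and an exact permutation test of 2 against 2 arrays cannot go below a two-sided p of 0.333. The rule for membership uses no measured value, but the set and the lists were proposed with earlier results of these data known. Every member is described. Full values are given for members at an unadjusted p under 0.05, the 4 largest differences and isoenzyme pairs that differ in sign. Listed genes outside the set are named at an unadjusted p under 0.05, with Hif1a, Arnt and Vhl in any case. Hif3a, Hif1an, Egln2, Cited2, Hmox1, Pgls and Dlat are named beyond this rule. Alternatives were scaling, background correction, the authors' matrix, filters, probe choice, variance trend, replicate block, corner blocks, the surface and each array left out.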

Additional observations from a re-analysis of the deposited data

How the results depend on the processing

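In none of the settings run did a member pass the adjusted threshold of limma. Of the 32 members 10 kept their direction throughout (Slc2a1, Hk2, Pfkp, Aldoc, Eno1, Eno2, Pkm2, Pdk1, Adm and P4ha1) and 22 turned in at least 1 setting; causes were not tested. The median shift and the authors' deposited matrix, which gave equal values and lowered all differences alike, so that every small positive value turned by construction, put 2 members lower at an unadjusted p under 0.05 (Hk2 -0.48, Slc2a1 -0.33), moved the medians to -0.15 (enzymes) and -0.14 (hypoxia response) and turned Slc2a3 to -0.0096, Hk1 -0.097, Pfkl -0.13, Pfkm -0.098, Pfkfb3 -0.13, Pfkfb4 -0.0022, Aldoa -0.12, Tpi1 -0.072, Ldha -0.015, Ldhb -0.15, Slc16a1 -0.043, Bnip3l -0.078, Egln3 -0.15, Vegfa -0.13 and Epas1 -0.10. Quantile scaling moved the enzyme median to 0.041 and turned Gpi1 to 0.029, Gapdh 0.013, Pgam1 0.015 and Slc16a3 0.0039. Normexp correction put 1 member lower (Hk2), moved the enzyme median to -0.016 and turned Pfkfb3 to -0.067, Ldhb -0.024, Egln3 -0.072, Vegfa -0.0079 and Epas1 -0.021. The mean of all probes put 1 member higher (Epas1, 1.60 ± 0.32 SE, adjusted p 0.327 in limma), moved the medians to 0.031 and -0.052 and their difference to -0.082, and turned Gpi1 to 0.029, Pfkfb3 -0.040, Gapdh 0.031, Slc16a3 0.018, Bnip3 0.094, Bnip3l -0.11, Egln3 -0.0054 and Vegfa -0.098. An intensity trend put 1 member higher (Pkm2). Dividing knockout array 1 by its surface put 1 member lower (Hk2, -0.44) and turned Pfkfb3 to -0.094, Aldoa -0.010, Pgk1 0.40, Bnip3 0.013 and Egln3 -0.13. Beside these member counts, many of the 19166 genes passed the same unadjusted threshold. With the median shift 2208 were lower, with normexp correction 1151 and with the surface divided out 1048. With the mean of all probes 1383 were higher, and with the intensity trend 1356. Probes on the gene's own chromosome, chosen after seeing the data, moved the enzyme median to 0.031 and turned Hk1 to -0.012 and Gapdh to 0.066, with no value for Pgk1 and Eno1. Without corner blocks Egln1 and Pgk1 had no value. The unfiltered fit and the stricter filter kept the same probe for each member, so no difference could turn there. Leaving out Egln1, also added later, only recomputed the contrast of the medians and refitted no gene.

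With each array left out in turn, 0 to 24 genes passed the adjusted threshold (24 without wild type replicate 1), 0 to 1 members were lower at an unadjusted p under 0.05 (Egln1, -3.41, without knockout replicate 2), the enzyme median was -0.020 to 0.013, the hypoxia response median -0.044 to 0.065 and their difference -0.046 to 0.076. Differences that turned ranged, in the same fits, from -0.012 to 0.14 for Hk1, -0.13 to 0.19 for Pfkl, -0.034 to 0.16 for Pfkm, -0.020 to 0.0017 for Gpi1, -0.047 to 0.10 for Pfkfb3, -0.0053 to 0.094 for Aldoa, -0.040 to 0.039 for Gapdh, -0.31 to 0.15 for Pgk1, -0.060 to 0.00044 for Pgam1, -0.086 to 0.099 for Ldhb, -0.083 to 0.32 for Slc16a1, -0.15 to 0.021 for Slc16a3, -0.10 to 0.018 for Bnip3, -0.011 to 0.18 for Bnip3l, -3.41 to 0.86 for Egln1, -0.036 to 0.059 for Egln3, -0.078 to 0.15 for Vegfa and -0.042 to 0.16 for Epas1. The lone array of a genotype was then assumed to vary like the other genotype. The labels do not say whether the replicate numbers pair the samples. Deviations of same-numbered arrays correlated at -0.0010, which cannot settle it, because knockout array 1 also carries its undivided surface. With the replicate number as a block, 0 members had an unadjusted p under 0.05. No member could turn, because each replicate number occurs once per genotype and the block leaves the differences unchanged. The lowest p in that fit was 0.155 (Pkm2, difference 0.32, limma). All members were well above background on all arrays, and with 2 arrays per genotype the median SE was 0.13. With a variance that follows intensity, the SE was 0.068 for the bright Gapdh and 0.20 for the dim Slc16a1. The part of signal level in the precision was not tested.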

Other observations

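Probes also disagreed for Cited2, a gene of the wider HIF list that competes with HIF for its coactivators. Its brighter probe gave a log2 difference of 0.079 ± 0.15 (SE), and its other probe gave -2.10. Values of that other probe on each array are not given here, so a genotype difference and 1 deviating spot cannot be told apart. The gene was singled out after its values were seen, and the cause was not tested. Hmox1, the heme oxygenase that oxygen and oxidative stress regulate, was at -1.79 and -2.19 in wild type and at -1.52 and 0.23 in the knockout. The difference was 1.35 ± 0.63 (SE), at an adjusted p of 0.490 (limma), and knockout array 2 stood well above the other 3.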
